A study of Silurus asotus with 15 samples.

Results

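The apolipoprotein genes of the Amur catfish (Silurus asotus) were taken as every locus whose deposited protein name, case ignored, starts with apolipoprotein A, B, C, D, E or M, leaving out the B mRNA editing enzyme and receptors. This gave 20 of the 25089 genes with expression values. They were 3 genes named apolipoprotein A-I, 9 named A-IV, 2 named B, 2 named C, 2 named D and 2 named E, while 0 carried the name apolipoprotein M. The rule uses the protein name and no measured value, and the names rest on similarity to proteins of other species.

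Apolipoproteins are the protein coat of the particles that carry cholesterol, triglyceride and phospholipid through blood and tissue fluid. Apolipoprotein A-I is the main protein of high-density lipoprotein, apolipoprotein B is the structural protein of very-low-density and low-density particles, apolipoprotein C-II activates lipoprotein lipase, and apolipoprotein E is a ligand for receptors of the low-density lipoprotein receptor family. In vertebrates most of these proteins are secreted by the liver, but in mammals apolipoprotein E is also made by astrocytes and macrophages and apolipoprotein D by glia, and in zebrafish the apolipoprotein Eb gene is a marker of microglia.

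The series surveyed poly(A) RNA of adult fish from a benthic environment, with 1 paired-end library for each of 15 tissues: liver, pancreas, spleen, kidney and head kidney, heart and muscle, ovary and testis, brain, pituitary and gill, and skin with the mandibular and the maxillary barbel. The labels give neither strain nor treatment, sex or age in numbers, nor the number of fish behind the libraries. There were no replicates, so no spread between fish could be estimated, no difference could be tested, and no order of levels given here can be called larger than that spread. Expression was deposited as FPKM, fragments per kilobase of gene model scaled by the mapped fragments of the library, which allows levels of different genes to be set side by side per length. In a bulk tissue sample, fewer cells of a type and less RNA per cell cannot be told apart.

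The FPKM of a library summed to between 239905 (skin) and 738341 (pancreas). No read counts were given; from steps among low values, 1 fragment was estimated to be worth 4.37 to 6.61 times as much FPKM in muscle, skin and the barbels as in the most finely stepped library, and at most 1.12 times as much in the other 11 libraries, so low levels are coarser in those 4. The liver library held liver RNA by its markers, with 31 of 32 matched genes of a list of secreted hepatocyte proteins highest there. Markers went against the labels of 2 libraries. GFAP, an intermediate filament of astroglia, was at 108 FPKM in the gill-labelled library and at 0.0240 FPKM in the brain-labelled library, whereas keratin 4, an epithelial keratin, was at 0.124 and 985 FPKM in the same 2 libraries. They are called the brain- and gill-labelled libraries throughout, and the counts of members are also given without them.

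In liver, apolipoprotein transcripts were among the most abundant of all. The 20 genes together made up 13.9% of the liver's summed FPKM, against 0.000377% in muscle at the lowest and 0.332% in the brain-labelled library at the highest of the other 14 libraries. Of the 15 members that reached 5 FPKM in any library, 14 had their highest level in liver, where 4.52% of all genes that reached 5 FPKM did. Of all 20 members, 13 were also tissue-enriched in liver. This means at least 5 FPKM there and a log2(FPKM + 1) that exceeds the next library's by 2.32 or more, the log2 of 5. Of all genes, 1.36% met the same rule. Among the 14 members highest in liver at 5 FPKM or more, 13 met the rule, against 43.8% of the other genes highest in liver at that level. With a pseudocount of 10 in place of 1, the members that met it numbered 7.

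**Figure D1:**
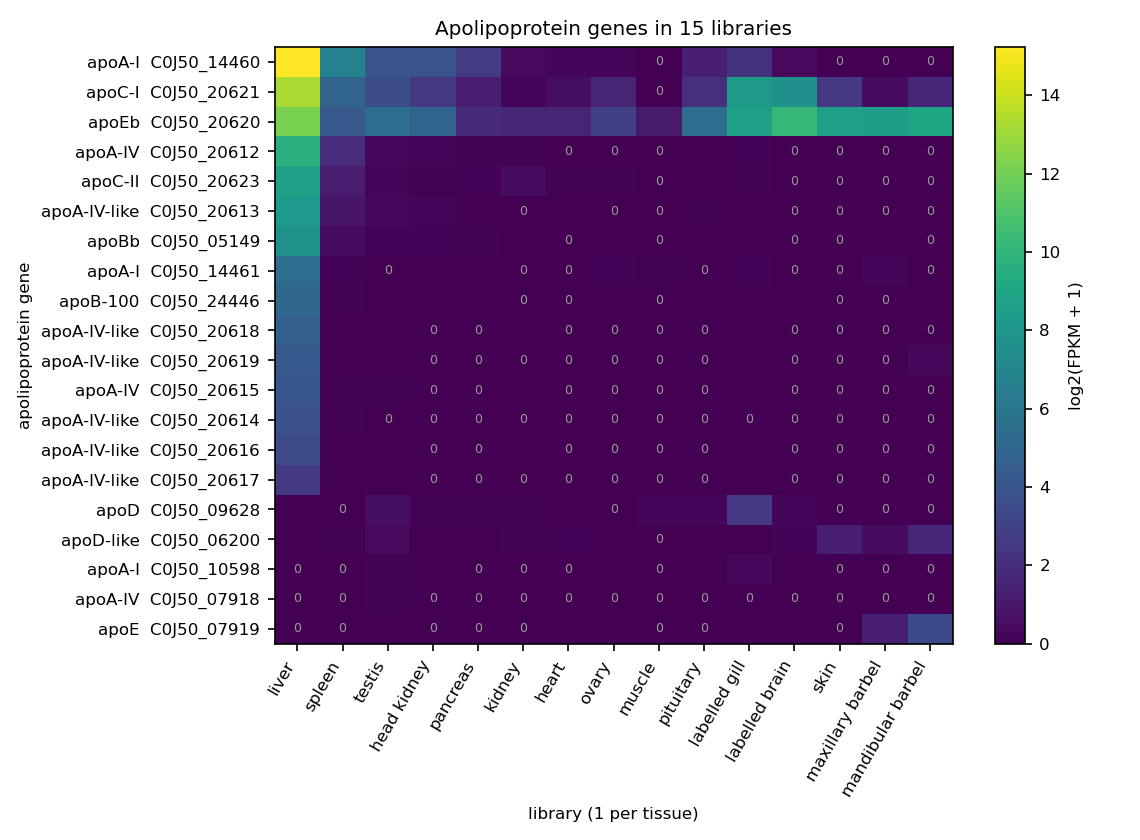
Level of each of the 20 apolipoprotein genes (rows, by falling liver FPKM) in each of the 15 libraries (columns), as log2(FPKM + 1) in colour. Most genes are coloured in the liver column alone, and apoEb is the only row coloured in every library, from 1.17 FPKM in muscle to 4654 FPKM in liver.

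The gene for the high-density lipoprotein protein led the family. ApoA-I C0J50_14460 (scaffold 178119, 759865 to 760855, minus strand, 3 coding exons) stood at 38449 FPKM in liver, the highest of all genes in that library, 9.71% of its summed FPKM and 70.0% of the summed FPKM of the members. In the other libraries it was listed at 108 FPKM in spleen, 15.3 in testis, 13.9 in head kidney, 5.19 in pancreas, 3.75 in the gill-labelled library, 1.52 in pituitary, 0.330 in kidney, 0.303 in the brain-labelled library, 0.227 in heart, 0.161 in ovary and 0 in skin, muscle and both barbels. Liver thus exceeded spleen, the next library, by 356-fold, or 853-fold with FPKM rescaled by median ratios, a scaling that raises liver against every library but pancreas. For this gene 1 fragment was estimated at 0.150 FPKM in skin and 0.0279 FPKM in spleen.

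The other 2 apoA-I genes were far lower. C0J50_14461, which follows the first by 3300 bases on the same strand (764156 to 765123), stood at 43.9 FPKM in liver, rank 771, and at 0.160 FPKM or less in every other library. C0J50_10598, on scaffold 10507 (1664281 to 1665697, minus strand), was listed at 0 in liver and reached 0.244 FPKM at most, in the gill-labelled library. The protein name apolipoprotein A-I therefore covered genes at ranks 1 and 771 in liver and a gene listed at 0 there.

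ApoA-IV is a lipid-binding protein of lipoproteins that mammals make mainly in the intestine, a tissue not analysed here. Of the 9 genes so named, 7 were tissue-enriched in liver. C0J50_20612 led with 815 FPKM in liver, against 2.75 in spleen, 0.269 in testis, 0.164 in head kidney, 0.115 in the gill-labelled library and less elsewhere. C0J50_20613 followed with 307 FPKM in liver and 0.926 in spleen. The remaining genes of the tandem row stood between 4.93 FPKM (C0J50_20617, just under the 5 FPKM needed for a call) and 24.4 FPKM (C0J50_20618) in liver, and at most 0.246 FPKM elsewhere. The last, C0J50_07918 on another scaffold, was listed at 0 in 14 libraries and at 0.0573 FPKM in testis. Neighbouring copies that are alike can share fragments, so how the authors' quantification divided reads among the A-IV genes is uncertain.

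Both apoB genes, which encode the scaffold of triglyceride-rich and low-density particles, were tissue-enriched in liver at moderate FPKM. ApoBb C0J50_05149 (scaffold 429, 775523 to 792610, plus strand, 27 coding exons) stood at 223 FPKM in liver, 0.396 in spleen, 0.116 in testis, 0.0921 in head kidney and 0.0473 FPKM or less in the other 11 libraries. ApoB-100 C0J50_24446 (scaffold 178291, 4479078 to 4499960, plus strand, 29 coding exons, a model marked partial in the annotation) stood at 33.4 FPKM in liver and 0.0819 FPKM in spleen. Their coding lengths of 11061 and 13203 bases make the worth of 1 fragment small, 0.00198 FPKM for apoBb in spleen, so these low values are less grainy than those of the short genes. FPKM is a level per length, and the apoB levels are low beside apoA-I on that scale.

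ApoC-II, the activator of lipoprotein lipase, followed the liver pattern, and apoC-I, a small protein that in mammals slows particle uptake and is also made by macrophages, did so only in part. ApoC-II C0J50_20623 stood at 398 FPKM in liver, 1.19 in spleen, 0.447 in kidney and 0.169 FPKM or less in the other 12 libraries. ApoC-I C0J50_20621 was the fourth highest gene of the liver library at 9908 FPKM. It then stood at 313 FPKM in the gill-labelled library, 197 in the brain-labelled library, 29.3 in spleen, 11.7 in testis, 4.81 in head kidney, 4.77 in skin, 3.23 in pituitary, 2.25 in mandibular barbel, 1.94 in ovary, 1.46 in pancreas, 0.450 in heart, 0.393 in maxillary barbel, 0.220 in kidney and 0 in muscle. Its liver level was 31.6-fold above the next library (60.7-fold after median-ratio scaling, and 338-fold over spleen without the brain- and gill-labelled libraries), the lowest such fold among the 13 enriched members, whose median was 331-fold and highest 926-fold. That highest fold, of A-IV C0J50_20618, was over 0.0263 FPKM in testis, where 1 fragment was estimated at 0.0273 FPKM.

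ApoEb, the receptor ligand, was the widest in distribution. C0J50_20620, a model marked partial in the annotation, stood at 4654 FPKM in liver, rank 12 there. Outside liver it was at 1145 FPKM in the brain-labelled library, 491 in mandibular barbel, 411 in the gill-labelled library, 409 in skin, 377 in maxillary barbel, 43.7 in testis, 42.3 in pituitary, 29.5 in head kidney, 18.0 in spleen, 6.38 in ovary, 2.61 in pancreas, 2.06 in kidney, 1.999 in heart and 1.17 in muscle. Its levels thus fell into a run of 5 libraries between 377 and 1145 FPKM and a lower run of 9 at 43.7 FPKM or less. Liver exceeded the brain-labelled library by 4.07-fold, so the gene was not called tissue-enriched; with FPKM rescaled by median ratios the fold was 11.7 and it was, and without the brain- and gill-labelled libraries it was as well, the count of enriched members then being 14.

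**Figure D2:**
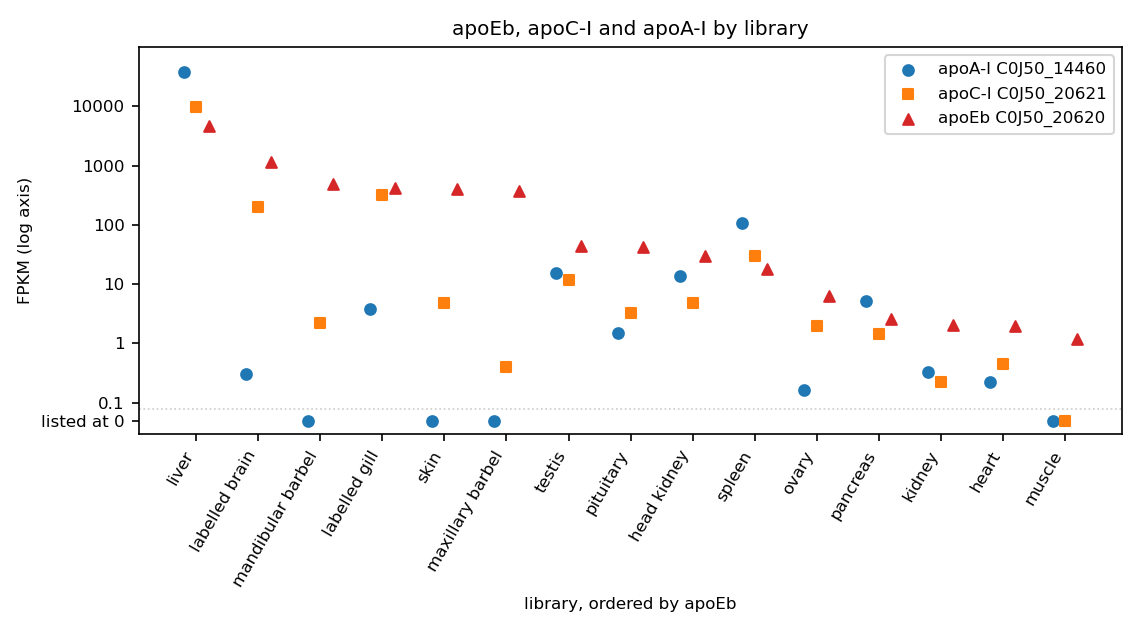
FPKM (log axis) of apoEb, apoC-I and apoA-I in the 15 libraries, ordered by apoEb; points on the lowest line are listed at 0. ApoEb stays at 377 FPKM or more in the 6 leftmost libraries, while apoA-I drops from 38449 FPKM in liver to 0.303 in the brain-labelled library and to 0 in skin and both barbels.

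The second apoE gene and both apoD genes did not share the liver pattern. ApoE C0J50_07919 was listed at 0 in liver and in 7 other libraries, skin among them, and stood at 9.77 FPKM in mandibular barbel, 1.58 in maxillary barbel and 0.0412 FPKM or less in the rest; it was above the next library by 2.06 on the log2(FPKM + 1) scale, under the 2.32 needed for a call. ApoD C0J50_09628, a lipocalin that binds small lipids, stood at 4.73 FPKM in the gill-labelled library, 0.468 in testis, 0.181 in the brain-labelled library and 0.0185 in liver. The apoD-like gene C0J50_06200 stood at 2.37 FPKM in mandibular barbel, 1.38 in skin, 0.409 in maxillary barbel and 0.331 in testis. These 3 genes, all with models marked partial in the annotation, were low everywhere. Their highest levels correspond to an estimated 61.6 fragments for apoE and 11.7 for the apoD-like gene in mandibular barbel, and to 121 for apoD in the gill-labelled library.

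Of the 20 members, 11 lay in 1 cluster on scaffold 178224, between 5312854 and 5433743, a span of 120.89 kb holding 12 loci. All 11 run on the plus strand: 8 A-IV genes first, then apoEb, apoC-I and apoC-II. The locus between apoC-I and apoC-II, C0J50_20622, has no protein name; it stood at 1778 FPKM in liver and 5.39 in spleen, and at 0.0266 in the brain-labelled library and 0 in skin. Within the cluster the liver level ran from 4.93 to 9908 FPKM. Skin gave 409 FPKM for apoEb and 4.77 for apoC-I, and listed the other 9 members at 0. ApoE C0J50_07919 lies apart, on scaffold 1102, 7806 bases after the A-IV gene C0J50_07918 and near the gene for the mitochondrial import receptor subunit TOM40.

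**Figure D3:**
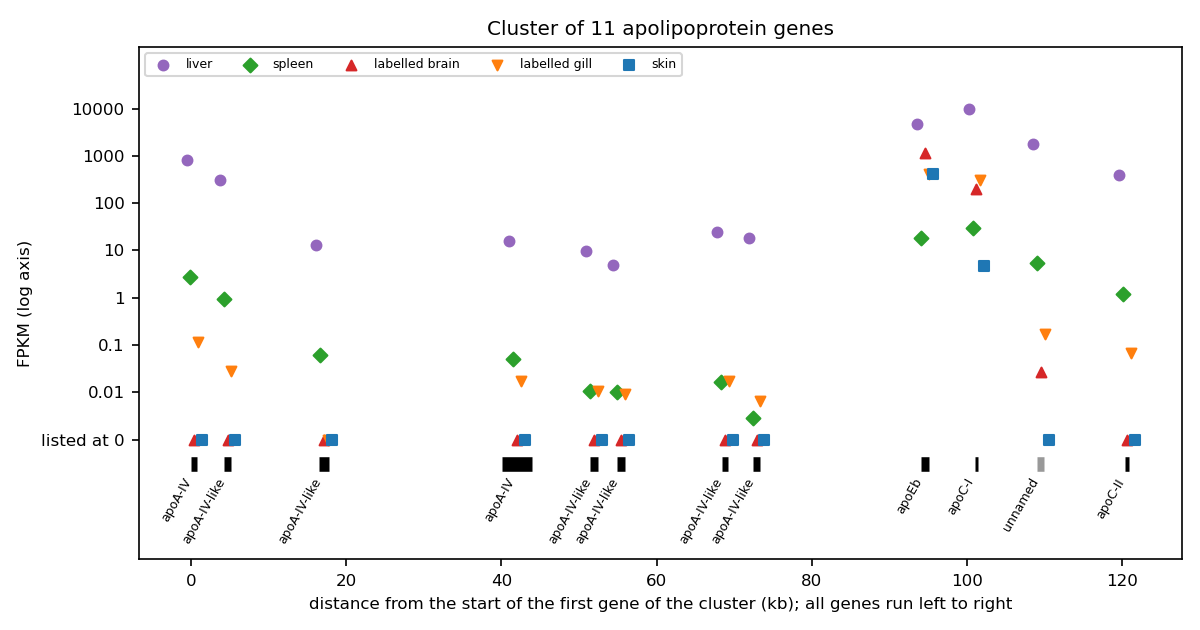
The cluster of 11 apolipoprotein genes: bars below mark the genes by distance in kb from the start of the first (members black, the unnamed locus grey), and points give FPKM (log axis) in liver, spleen, skin and the brain- and gill-labelled libraries, set slightly apart along the distance axis for legibility. Points outside liver approach the liver points at apoEb and apoC-I, for example 1145 against 4654 FPKM for apoEb in the brain-labelled library.

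Levels outside liver were then set against a constant share of the liver level. For each other library the reference share was the median, over the 32 matched secreted hepatocyte genes at 10 FPKM or more in liver, of FPKM as a percentage of the liver FPKM. It was highest in spleen at 0.260% (quartiles 0.216% and 0.296%), followed by pancreas at 0.0834%, testis at 0.0485% and head kidney at 0.0407%. It was 0.0121% in the gill-labelled library, 0.0111% in ovary, 0.00823% in kidney, 0.00728% in pituitary, 0.00386% in heart, 0.00358% in the brain-labelled library, 0.00279% in skin, 0.00231% in mandibular barbel, 0.000569% in maxillary barbel and 0 in muscle. In spleen 29 of the 32 genes lay within 3-fold of the reference, and 27 did in testis and in head kidney. The share was less uniform elsewhere, with 20 of 32 in the gill-labelled library, 10 in pancreas and 4 in each barbel, and in skin and the barbels 11 to 14 list genes were listed at 0.

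Members with a strong liver level, a set chosen after the values were seen, lay near the reference in spleen. The 7 members at 100 FPKM or more in liver (apoA-I C0J50_14460, A-IV C0J50_20612 and C0J50_20613, apoBb, apoC-I, apoC-II and apoEb) gave shares from 0.177% for apoBb to 0.387% for apoEb, with a median of 0.300%, and 7 of 7 lay within 3-fold of the reference of 0.260%. Their liver levels differed far more than their spleen shares, from 223 to 38449 FPKM. Spleen was the next library after liver for 8 of the 13 enriched members, for 19 of the 30 enriched genes of the secreted hepatocyte list, and for 26.6% of all genes enriched in liver. In testis and head kidney 6 of the 7 lay within 3-fold, apoEb standing higher, at 0.940% and 0.634%. The count was 5 of 7 in the gill-labelled library, 3 in pituitary, 2 in heart, kidney, ovary and pancreas, and 0 in the brain-labelled library, skin and both barbels. Depth limits these counts. In skin and both barbels, 1 estimated fragment of C0J50_20612, C0J50_20613 or apoC-II would already lie over the 3-fold window. Over all 15 members highest in liver, which include genes at a few FPKM, 13 lay within 3-fold in spleen, 10 in testis, 8 in head kidney, 7 in the gill-labelled library and at most 4 in the others, muscle with its reference of 0 left out. The exceptions in spleen were the A-IV-like genes C0J50_20618 and C0J50_20619, at 0.267 and 0.0580 times the reference. Both were at less than 1 estimated fragment in spleen. So were C0J50_20616 and C0J50_20617, which are counted among the 13, so these 4 genes say little about the share. The 3-fold window was not counted over the other genes highest in liver. These counts therefore do not show whether nearness to the reference is particular to the members.

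ApoA-I stayed close to the reference or below it. Its share in the 6 other libraries where it reached 1 FPKM was 1.08 times the reference in spleen, 0.890 in head kidney, 0.822 in testis, 0.805 in the gill-labelled library, 0.542 in pituitary and 0.162 in pancreas. A-IV C0J50_20612 and apoC-II reached 1 FPKM outside liver in spleen alone, at 1.30 and 1.15 times the reference. In pancreas all 7 members lay below the reference, between 0.00723% and 0.0560%. The secreted list's values there were widely spread, the row matched to coagulation factor IX standing at 564% of its liver level.

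Of the 32 secreted hepatocyte genes, 25 were at 1 FPKM or more in spleen, 16 in pancreas, 14 in testis and 12 in head kidney, against 2 to 9 in the other 10 libraries. Their summed levels overlapped, at 425 FPKM in spleen, 984 in pancreas, 97.1 in testis and 116 in head kidney, against 13.7 to 159 in the other 10. Single genes weighed heavily in several of these sums. Retinol-binding protein 4 gave 150 of 159 FPKM in the brain-labelled library, 151 of 156 in skin and 96.0 of 99.3 in muscle. Serotransferrin gave 84.9 of 107 in the gill-labelled library, and the row matched to coagulation factor IX 432 of 984 in pancreas. In pancreas the median share over the 7 members was 0.0147%, within the list's wide quartiles of 0.0140% and 0.494% there. The members' median was 0.0518% in testis and 0.0413% in head kidney. The part of hepatocyte RNA in the levels of the members was not tested.

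**Figure D4:**
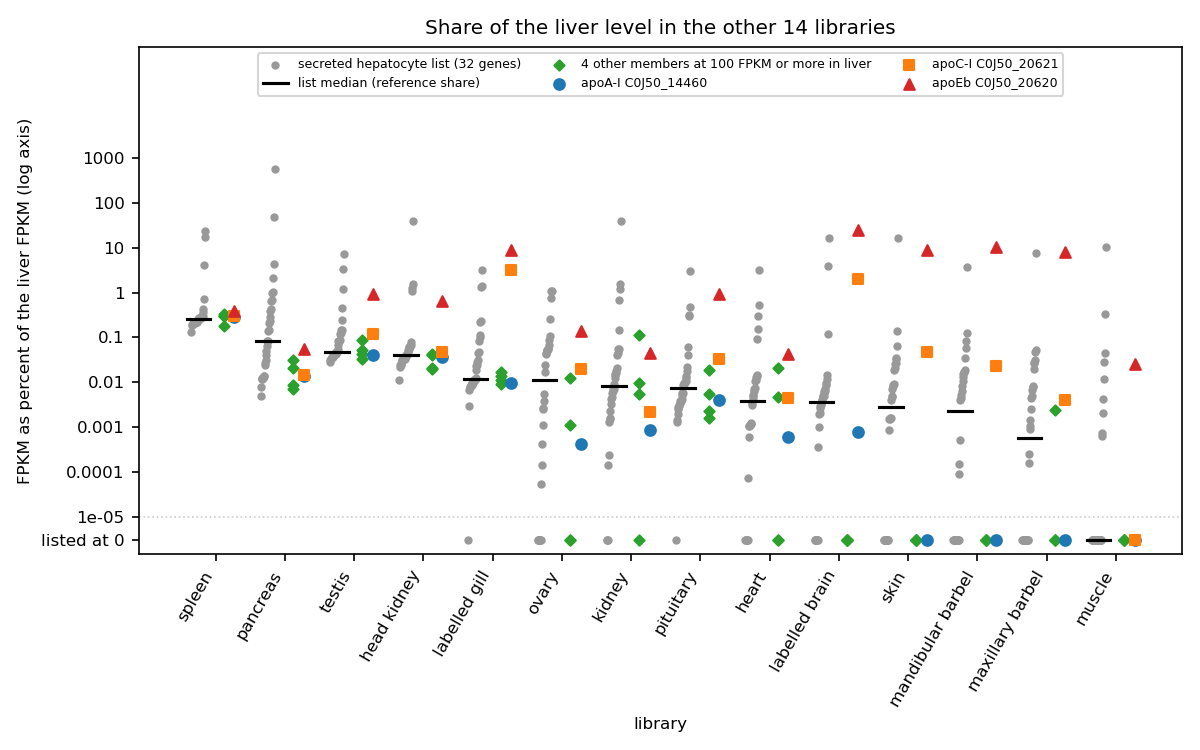
FPKM as a percentage of the liver FPKM (log axis) in the other 14 libraries, for the 32 secreted hepatocyte genes (grey, bar at their median, the reference share) and the 7 members at 100 FPKM or more in liver; points on the lowest line are listed at 0. All 7 members sit by the bar in spleen, while apoEb stands at 24.6% in the brain-labelled library against a reference of 0.00358%.

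A member was called above the liver share in a library where it had at least 1 FPKM and at least 5 times the reference. A member listed at 0 in liver, as apoE C0J50_07919 was, has no share and passed on the 1 FPKM alone. ApoD and the apoD-like gene stood in liver at 0.0185 and 0.00194 FPKM, each less than 1 estimated fragment. Their calls too were decided by the 1 FPKM. Outside liver, 37 of the 280 pairs of member and library reached 1 FPKM; 21 of these were above the share and 16 were not. Of the 196 pairs of the 14 members highest in liver at 5 FPKM or more, 16 were above, against 42.6% of all such pairs of the other genes highest in liver. By library, 29.7% (muscle) to 57.2% (testis) of those other genes met the rule, so a call alone sets no member apart. The 21 pairs came from 5 members: apoEb in 12 libraries, apoC-I in 4, apoE C0J50_07919 in both barbels, the apoD-like gene in mandibular barbel and skin, and apoD in the gill-labelled library. Of the 14 members highest in liver at 5 FPKM or more, apoEb and apoC-I were above the share in at least 1 library, where 82.7% of the other genes highest in liver were. Over all members the count was 5 of 20, where 84.4% of all other genes met the rule. Without the brain- and gill-labelled libraries, 16 pairs from 4 members were left. Where the reference is close to 0, as in muscle, skin and the barbels, the rule asks for little more than 1 FPKM.

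For apoEb the margin was wide in several libraries. Its share of the liver level was 24.6% in the brain-labelled library, 10.6% in mandibular barbel, 8.83% in the gill-labelled library, 8.80% in skin and 8.10% in maxillary barbel, which is 728 (labelled gill) to 14220 (maxillary barbel) times the reference. It was 125 times in pituitary, 19.4 in testis, 15.6 in head kidney, 12.3 in ovary, 11.1 in heart and 5.39 in kidney, and in muscle the reference was 0. Spleen, at 1.49 times, and pancreas, at 0.671 times, were not above. Where the list of intracellular hepatocyte proteins gave the reference, apoEb was no longer above in heart, kidney, muscle, ovary, pituitary and testis.

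ApoC-I was above the share at 555 times the reference in the brain-labelled library, 261 in the gill-labelled library, 17.3 in skin and 9.86 in mandibular barbel. In spleen it was at 1.14 times, in head kidney 1.19, in ovary 1.76, in testis 2.44, in pituitary 4.49 and in pancreas 0.176. Its calls in skin and mandibular barbel, at 4.77 and 2.25 FPKM where 1 fragment was estimated at 0.445 FPKM, were lost with the intracellular list as reference. Against the highest share of any secreted list gene instead of the median, apoC-I was above in 0 libraries and apoEb in 4, the brain- and gill-labelled libraries and both barbels. Among the list genes that set that bar were retinol-binding protein 4, at 16.1% in the brain-labelled library and 16.3% in skin, and carboxypeptidase N subunit 1, at 3.23% in the gill-labelled library.

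Ratios within a library do not depend on its scaling. ApoC-I to apoA-I was 0.258 in liver, 0.271 in spleen, 0.281 in pancreas, 0.346 in head kidney, 0.667 in kidney and 0.764 in testis. It was 1.98 in heart, 2.13 in pituitary and 12.03 in ovary, where both genes were low, 83.5 in the gill-labelled library and 650 in the brain-labelled library. ApoEb to apoA-I was 0.121 in liver, 0.166 in spleen, 0.502 in pancreas, 2.12 in head kidney, 2.85 in testis, 6.25 in kidney, 8.80 in heart, 27.9 in pituitary, 39.6 in ovary, 110 in the gill-labelled library and 3783 in the brain-labelled library. ApoEb to apoC-I was 0.470 in liver, 1.31 in the gill-labelled library, 5.82 in the brain-labelled library, 85.9 in skin, 218 in mandibular barbel and 958 in maxillary barbel, the last resting on less than 1 estimated fragment of apoC-I. The same ratio was 0.614 in spleen, 1.79 in pancreas, 3.29 in ovary and 3.73 in testis. It was 4.44 in heart, 6.13 in head kidney, 9.37 in kidney and 13.1 in pituitary. Both genes were thus held by the libraries labelled brain and gill and, at lower levels, by others such as spleen and testis. Skin and the barbels held apoEb with little apoC-I.

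Marker lists of other cell types went with apoEb in some libraries and not in others. In the brain-labelled library, skin and both barbels, 8 to 9 of 9 matched keratinocyte markers were at 1 FPKM or more and their summed level was 2450 to 4715 FPKM, against 64.0 to 977 in the other 11 libraries, where 3 to 7 of 9 reached 1 FPKM. Claudin-4 at 1360 FPKM and epithelial cell adhesion molecule at 1175 were the highest in the brain-labelled library and weighed heavily in its sum. Claudin-4 was at 0.405 FPKM in skin, 32.1 in mandibular barbel and 40.1 in maxillary barbel, and the adhesion molecule at 168 in skin. The adhesion molecule was also at 898 FPKM in ovary, and keratin 8 was highest in heart at 845. Astroglia markers summed to 1985 FPKM in the gill-labelled library, against 48.5 to 698 elsewhere. Of the 12, 9 reached 1 FPKM in the gill-labelled library and 3 to 10 elsewhere, the 10 in pituitary. Brain fatty acid-binding protein and aquaporin-4 were listed at 0 in the gill-labelled library, and 6 of the 12 were highest there. Glutamine synthetase at 682 FPKM and S100-B at 676 weighed heavily in its sum. Glutamine synthetase was also at 593 FPKM in pancreas, the library with the sum of 698. Macrophage markers (11 matched) summed to 3129 FPKM in spleen, where apoEb was at 1.49 times the reference share, to 993 in the brain-labelled library, 98.0 in the gill-labelled library and 68.6 in skin, where apoEb was at 409 FPKM. In liver, where apoEb was highest, the 3 lists summed to 70.3, 132 and 118 FPKM. The part of any of these cell types in the apoEb level was not tested.

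**Figure D5:**
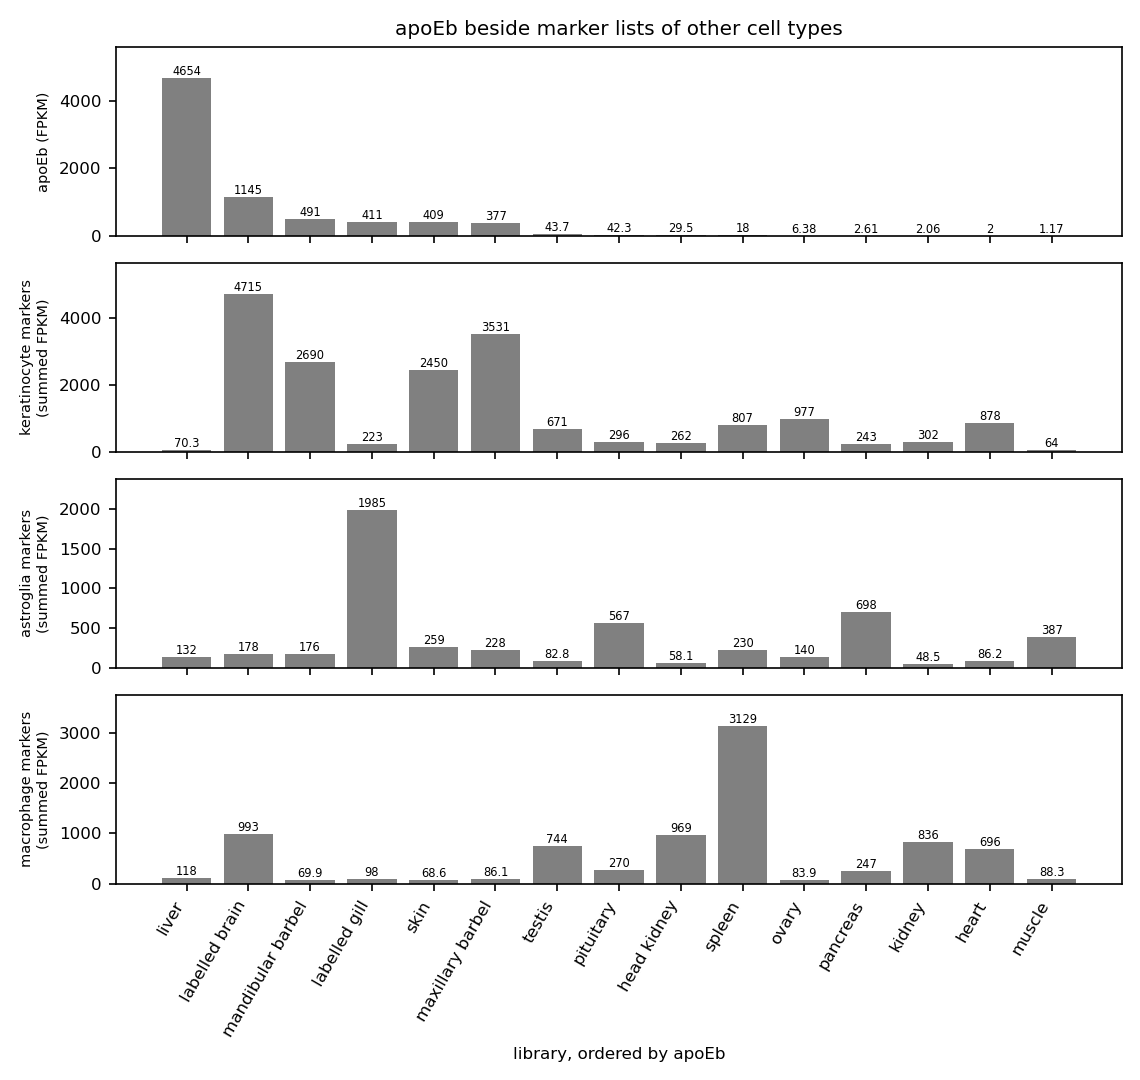
ApoEb (FPKM, top) above the summed FPKM of 9 keratinocyte, 12 astroglia and 11 macrophage markers in the 15 libraries, ordered by apoEb; each bar is 1 library and starts at 0. Keratinocyte sums of 2450 to 4715 stand in the brain-labelled library, skin and both barbels, the astroglia sum of 1985 in the gill-labelled library and the macrophage sum of 3129 in spleen, where apoEb is at 18.0 FPKM. Single genes weigh heavily in some sums, for example glutamine synthetase at 682 FPKM in the gill-labelled library.

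Genes that handle lipoproteins were examined as 6 lists, 78 genes in all matched by protein name, of which 18 were highest in liver at 5 FPKM or more, where 4.52% of all genes at 5 FPKM or more in any library were. The 78 include genes under 5 FPKM in every library, so that percentage has another base. The list of hepatic transcription factors was also chosen for its tie to liver. The lists are small, and differences between their counts were not tested. For particle assembly this held for 4 of 12 genes. Microsomal triglyceride transfer protein, which loads lipid onto apoB, stood at 79.3 FPKM in liver and at 0.222 FPKM or less elsewhere, beside 223 and 33.4 FPKM for the apoB genes in liver. The others were protein disulfide-isomerase, the partner subunit of that transfer protein, at 152 FPKM, cytosolic acetyl-CoA acetyltransferase at 40.8 and diacylglycerol acyltransferase 2, which makes triglyceride, at 14.8. The acetyl-CoA acetyltransferase was counted because its protein name matched the list, and a part in particle assembly was not shown for it. SAR1b, a GTPase of secretory vesicles, was highest in the brain-labelled library at 57.1 FPKM and the phosphatidate phosphatase LPIN1 in muscle at 86.5.

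Of 19 receptors, 2 were highest in liver. The low-density lipoprotein receptor, which binds apoB and apoE, stood at 94.1 FPKM in liver and 22.5 in pancreas, and sortilin, a sorting receptor that binds apoB in mammals, at 22.6 FPKM in liver and 22.3 in the gill-labelled library. Ovary held the highest levels of 3 relatives, LRP2 at 323 FPKM, LRP1B at 203 and the very-low-density lipoprotein receptor at 108, while every member apart from apoEb and apoC-I was at 0.161 FPKM or less in ovary. Membrane-associated progesterone receptor component 1 was highest in testis at 146 FPKM.

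Of 11 genes for lipases and plasma remodelling, 2 were highest in liver. Phosphatidylcholine-sterol acyltransferase, which esterifies cholesterol on particles with apoA-I as its activator, stood at 71.5 FPKM in liver. The next was angiopoietin-related protein 3, an inhibitor of lipases, at 42.5 FPKM in liver, against 28.0 in the gill-labelled library. Pancreas led for the rows named lipoprotein lipase-like (C0J50_10446, 3000 FPKM, 0.0372 in liver) and hepatic triacylglycerol lipase-like (C0J50_12808, 641 FPKM), whose names rest on similarity. Phospholipid transfer protein was at 96.6 FPKM in spleen, and endothelial lipase at 80.6 in testis.

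For cholesterol efflux, 1 of 10 genes was highest in liver, ABCG8 at 5.14 FPKM. ABCA1, which passes cholesterol to apoA-I, was highest in the gill-labelled library at 90.4 FPKM and stood at 23.0 in liver. NPC2, a lysosomal cholesterol carrier, led in spleen at 784 FPKM, ABCG4 in testis at 288, cholesterol 25-hydroxylase-like protein in the brain-labelled library at 50.3 and NPC1 in ovary at 30.4. Of 7 fatty acid-binding proteins, 2 were highest in liver, the liver basic form at 152 FPKM and form 1-B.1 at 76.5; form 11a led in spleen at 658, the heart form in mandibular barbel at 473 and the intestinal form in the brain-labelled library at 55.7.

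Among 19 transcription factors of hepatic lipid genes, 7 were highest in liver. These included hepatocyte nuclear factors 1-alpha at 60.4 FPKM, 3-alpha at 44.7 and 4-alpha at 42.9, each a regulator of liver genes in mammals. Outside liver, hepatocyte nuclear factor 4-alpha was at 1.80 FPKM in pancreas, 1.38 in kidney, 0.111 in spleen and 0.0590 or less in the other 11 libraries. It was listed at 0 in the brain-labelled library, skin and both barbels, where apoEb was at 377 to 1145 FPKM, and also in muscle and ovary, where apoEb was at 1.17 and 6.38 FPKM. PPAR-alpha, a receptor for fatty acids, was highest in the gill-labelled library at 139 FPKM and C/EBP-alpha in head kidney at 187.

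Likeness of pattern was described by Pearson's r of log2(FPKM + 1) over the 15 libraries, against 15511 named genes; all values of a library share its scaling. Closest to apoA-I were the plasma proteins hemopexin (r = 0.975), intelectin 3 (0.974), haptoglobin (0.968), serine proteinase inhibitor clade A member 1 (0.965) and kininogen-1 (0.959), each highest in liver. Closest to apoE C0J50_07919 were interferon-induced very large GTPase 1-like (0.989), apolipoprotein L 1 (0.970), a gene named as a transmembrane protein (C0J50_03495, 0.961), trichohyalin (0.945) and zgc:110348 (0.934), each highest in mandibular barbel. ApoE C0J50_07919 reached 1 FPKM in 2 libraries alone, the coarsely stepped barbels, so its r rests mainly on them. Any gene seen mainly in the barbels would rank high by this measure.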

How the data were processed

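Per the labels' protocols, poly(A) RNA was purified on beads from Trizol extracts after a DNase step and made into paired-end libraries. The authors deposited FPKM for 25089 genes in 15 libraries; StringTie 1.3.4d was used, per the submitters' processing notes, with aligner, build name and filters not given in the sources used here. Positions, coding lengths and protein names come from the deposited annotation of 25122 loci, and lengths hold no untranslated regions. Of the member models, 9 are marked partial, so their coding lengths, and the fragment estimates that rest on them, may be incomplete. Sequences were not analysed here.

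Each tissue was a group of 1 library, so no p-value was computed and each call is a rule of size on FPKM or on log2(FPKM + 1), with a pseudocount of 1. Depth is known only from an estimate: the commonest FPKM times coding length among low values was taken as the worth of 1 fragment, and no interval was derived from it. Members were named in full; from each list up to 5 matched genes with the highest FPKM were named and for likeness the 5 genes with the highest r. Sortilin, ABCG8, angiopoietin-related protein 3 and diacylglycerol acyltransferase 2 fall outside that rule. So do retinol-binding protein 4, the row matched to coagulation factor IX, carboxypeptidase N subunit 1, aquaporin-4 and brain fatty acid-binding protein. All of them were chosen after their values were seen. Symbols were matched to protein names by patterns written after the annotation was seen, the row with the highest mean being used. The members and lists were chosen with earlier results of these data known; the set at 100 FPKM in liver and the 3-fold window were chosen after the values were seen. The estimate of the reference share and the call at 5 times that share were tested on simulated data, and the other rules were not. The simulated libraries had no genes at 0, no fragment counts and no FPKM minimum. Their shares were all higher than the reference of every library but spleen and pancreas. The simulation therefore does not show how the call behaves in the libraries with lower references, skin, muscle and the barbels among them. Alternatives were other pseudocounts, minimums, folds and references, median-ratio scaling over 5659 genes, a common sum per library, and libraries left out. Scripts used Python 3.11.15, pandas 2.3.3, numpy 2.4.6 and matplotlib 3.10.9.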

Additional observations from a re-analysis of the deposited data

How the results depend on the processing

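No paired analysis was possible because each tissue has 1 library, and for the same reason no replicate could be left out. Of 42 alternative values, 31 stayed close to the reported one and 11 moved; counts were called close within 1.5 times, and the reference share within the quartiles of its list. The 13 members tissue-enriched in liver became 7 with a pseudocount of 10 and lay between 9 and 15 under the other settings. The reference share in spleen, 0.260% of the liver level, was 0.446% with the intracellular hepatocyte list and 0.109% after median-ratio scaling, a scaling that cancels, apart from the FPKM minimum, where members and reference are compared within a library. The 21 pairs above the liver share became 13 with the intracellular list, 9 against the highest secreted list gene, 35 with a minimum of 0.1 FPKM and 12 with a minimum of 5 FPKM. The 5 members above it became 9 and 3 with those 2 minimums. The 18 lipid genes highest in liver became 29 with every matched row, since more rows are counted, and 28 after median-ratio scaling. That scaling divided liver by 0.520 and the libraries by 0.517 in pancreas to 2.06 in ovary, so it raised liver against every library but pancreas; each member that reached 1 FPKM kept its highest library under both scalings. Leaving out the brain- and gill-labelled libraries, chosen after the data were seen for 3 of the counts, gave 16 pairs, 4 members above the share and 14 highest in liver. Depth limits the members at a few FPKM, above all in skin, muscle and the barbels.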

Other observations

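The unnamed locus C0J50_20622, which lies inside the cluster between apoC-I and apoC-II, followed the liver pattern of the members around it. It stood at 1778 FPKM in liver, 5.39 in spleen, 0.886 in testis, 0.568 in head kidney, 0.174 in pituitary, 0.170 in the gill-labelled library, 0.140 in pancreas and 0.0266 FPKM or less in the other 8 libraries. In the gill-labelled library it was at 0.170 FPKM beside 313 FPKM for its neighbour apoC-I.

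The gene beside apoA-I on scaffold 178119, named T-box transcription factor TBX1-like (C0J50_14459, 754487 to 757935, minus strand), stood at 14.2 FPKM in liver and at 0.496 FPKM or less in every other library. It is separated from apoA-I by 1929 bases of the coding annotation. It was chosen for its position, after its values were seen.

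Likeness over the 14 libraries without liver was added after the values were seen, for the members above the liver share at the highest levels. Closest to apoEb were immunoglobulin superfamily member 8 (Pearson's r = 0.908), tudor domain-containing protein 7B (0.895), rho GTPase-activating protein 23 (0.894), septin-5 (0.887) and aryl-hydrocarbon receptor repressor b (0.878), all at 20.7 FPKM or less where apoEb reached 1145. Closest to apoC-I were rho GTPase-activating protein 20 (0.882), hyaluronan and proteoglycan link protein 3 (0.879), organic anion transporter 1D1 (0.870), G protein-coupled receptor 55a (0.864) and a row named lipoprotein lipase-like, C0J50_06027 (0.861). The last was highest in the gill-labelled library at 7.73 FPKM and stood at 3.83 in the brain-labelled library.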
